A study of Mus musculus with 57 samples.

Results

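Glucocorticoid-responsive genes were examined in brain microglia of wild-type mice and of littermates lacking P2RY12. They were 8 genes, taken by symbol whatever their values: *Nr3c1*, *Fkbp5*, *Tsc22d3*, *Sgk1*, *Errfi1*, *Per1*, *Zbtb16* and *Klf9*. All 8 had a row in both deposited count tables, of 50565 and 53278 genes, and all 8 passed the filter on low counts in both. *Nr3c1* encodes the glucocorticoid receptor itself. *Fkbp5* encodes a co-chaperone that lowers the receptor's affinity for hormone. *Tsc22d3* encodes GILZ, a leucine zipper protein that restrains inflammatory transcription factors. *Sgk1* encodes a serine/threonine kinase of the PI3K pathway, and *Errfi1* a feedback inhibitor of the epidermal growth factor receptor. *Per1* is a core clock gene, and *Zbtb16* and *Klf9* encode zinc finger transcription factors.

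The glucocorticoid receptor is held in the cytoplasm by heat shock protein chaperones until corticosterone, the main glucocorticoid of mice, binds it. The receptor then enters the nucleus, binds DNA elements built of paired TGTTCT-like hexamers, and activates genes such as *Fkbp5*, *Tsc22d3* and *Per1*, while it restrains many inflammatory genes. Systemic inflammation is a classic stimulus of corticosterone release from the adrenal gland, and microglia, the resident macrophages of the brain, express the receptor. Corticosterone levels were not analysed here.

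RNA was sequenced from CD11b-positive brain cells, annotated as microglia. P2RY12 is a purinergic receptor of resting microglia. The sex experiment held 18 adult animals, with 4 WT and 5 KO males and 4 WT and 5 KO females, and with no treatment characteristic in their labels. The LPS experiment compared animals labelled LPS (lipopolysaccharide, an inflammatory component of bacterial walls, injected intraperitoneally at 1 mg/kg) with animals labelled ns, a term the labels leave undefined, in both genotypes. The labels give neither the way P2RY12 was deleted, nor the sex of these animals, nor the interval between injection and collection. Beyond naming separate samples, the labels of the LPS experiment do not say that each came from its own animal, so p-values measure the spread between samples. CD11b is carried by other myeloid cells too, and in bulk samples fewer cells of a type and less RNA per cell cannot be told apart.

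Total counts ran from 58.5 to 318.5 M (mega, median 92.0) in the sex experiment and from 15.9 to 168.4 M (median 24.7) in the LPS experiment. Among small counts, 78.36 to 87.65% were even numbers in the sex experiment and 41 to 46.2% in the LPS experiment. The totals of the 2 tables are therefore not compared as depth. Levels are given as CPM, a gene's count over the TMM-scaled library total expressed in M. They are not compared between genes, since transcripts differ in length, nor between the tables, which were counted differently. In the sex experiment *P2ry12* was at 3007 CPM or more in every WT animal and at 526.4 or less in every KO animal. In the LPS experiment 4 WT libraries of library number 2 went against their labels and were kept apart. Those with the labels WT ns 1 and WT ns 5 had *P2ry12* at 481 and 927.4 CPM, against at least 3516 in the other 6 WT ns samples, and had *Saa3*, an acute-phase gene, at 1781 and 2491, against at most 64.4. Those with the labels WT LPS 1 and WT LPS 6 had *P2ry12* at 4461 and 12150 CPM, against at most 1063 in the other WT LPS samples, and *Saa3* at 1.59 and 3.21, against at least 1418. WT LPS 8 and WT LPS 9 were nearly the same library and were summed. The LPS tests therefore used 28 samples, namely 6 WT ns, 6 WT LPS, 8 KO ns and 8 KO LPS. A further 4 of these, WT LPS 7, KO ns 5, KO ns 6 and KO LPS 5, correlated less well with the others, and results are also given without them. Their median Spearman correlations were 0.877, 0.905, 0.849 and 0.840. Of the libraries kept apart, WT ns 5 and WT LPS 6 were at 0.9115 and 0.861. The other 26 samples were at 0.9396 or more. Libraries with a median under 0.92 are called poorly correlated in what follows. The library names form 2 sets: set 1 had *Ddx3y* at 96.1 to 136.6 CPM and *Xist* at no more than 2.11, set 2 had *Xist* at 786.3 or more and *Ddx3y* at no more than 0.626. Set was a covariate in the LPS model.

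For 7 of the genes the counted spans on GRCm39 were chr17:28617727-28705123 for *Fkbp5*, chrX:139440277-139501257 for *Tsc22d3*, chr10:21758083-21875802 for *Sgk1*, chr4:150938253-150953346 for *Errfi1*, chr11:68985934-69000791 for *Per1*, chr9:48563097-48747525 for *Zbtb16* and chr19:23118590-23145493 for *Klf9*. Each span is the whole gene with its introns, as listed for the sex experiment. No spans are listed for the LPS experiment. Annotated genes inside the spans held at most 1.66% of a member's counts, the highest being 1700045H11Rik at *Errfi1*.

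Promoter sequence was available for 6 members, in 15 windows of the 250 bases before a RefSeq start site (build GRCm38.p6, a different build from the counted spans). They were searched on both strands for the receptor's palindrome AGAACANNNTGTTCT, for its looser core GNACANNNTGTNC, and for the single hexamer TGTTCT, which is contained in the palindrome. The palindrome occurs in 3 of 32851 mouse windows (0.00913%), the core in 127 (0.387%) and the hexamer in 5284 (16.1%). Of the 15 windows, 1 of the 6 *Sgk1* windows held the full palindrome, 189 to 175 bases before its start. Single hexamers were also found in 2 other *Sgk1* windows and in 1 *Tsc22d3* window. The *Sgk1* window is shown because it holds the palindrome, and those of *Fkbp5* and *Klf9* because both genes were called higher with LPS in both genotypes in the results that follow. Capitals mark the palindrome and the hexamers, and a window in lower case holds none.
Sgk1, chr10:21993640-21993889, plus strand: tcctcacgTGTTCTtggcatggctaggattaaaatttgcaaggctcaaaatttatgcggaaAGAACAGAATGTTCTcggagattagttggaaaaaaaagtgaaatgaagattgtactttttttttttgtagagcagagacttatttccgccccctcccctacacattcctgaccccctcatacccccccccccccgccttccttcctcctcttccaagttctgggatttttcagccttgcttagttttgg
Fkbp5, chr17:28486150-28486399, minus strand: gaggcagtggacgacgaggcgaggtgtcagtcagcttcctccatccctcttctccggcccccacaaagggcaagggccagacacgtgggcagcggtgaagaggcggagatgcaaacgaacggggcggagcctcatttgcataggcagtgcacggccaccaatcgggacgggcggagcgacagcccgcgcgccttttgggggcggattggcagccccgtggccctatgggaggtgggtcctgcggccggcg
Klf9, chr19:23140976-23141225, plus strand: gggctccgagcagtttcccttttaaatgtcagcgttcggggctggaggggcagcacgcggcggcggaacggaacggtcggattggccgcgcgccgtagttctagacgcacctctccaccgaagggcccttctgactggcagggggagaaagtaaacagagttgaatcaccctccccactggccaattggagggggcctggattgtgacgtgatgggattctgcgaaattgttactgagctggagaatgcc
A match describes these letters only, and the windows without one say nothing of elements elsewhere, since receptor elements can lie far from the start site.

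LPS moved most of the 8 genes, and in both directions. In KO samples *Klf9*, *Zbtb16* and *Fkbp5* were higher with LPS and *Sgk1*, *Nr3c1* and *Errfi1* lower, by edgeR's quasi-likelihood test with Benjamini-Hochberg adjustment over all 16088 genes tested (called where the adjusted p is under 0.05). In WT samples *Zbtb16*, *Klf9*, *Fkbp5* and *Tsc22d3* were higher and *Sgk1* and *Nr3c1* lower. These 3 higher and 3 lower calls in KO stand against a background of 2318 genes called higher (14.4%) and 2269 called lower (14.1%). The 4 higher and 2 lower calls in WT stand against 2487 genes called higher (15.5%) and 2447 called lower (15.2%). The median log2 fold change of the 8 genes was 0.56 in KO and 1.17 in WT, beside 0.01 and 0.03 over all genes tested.

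**Figure D1:**
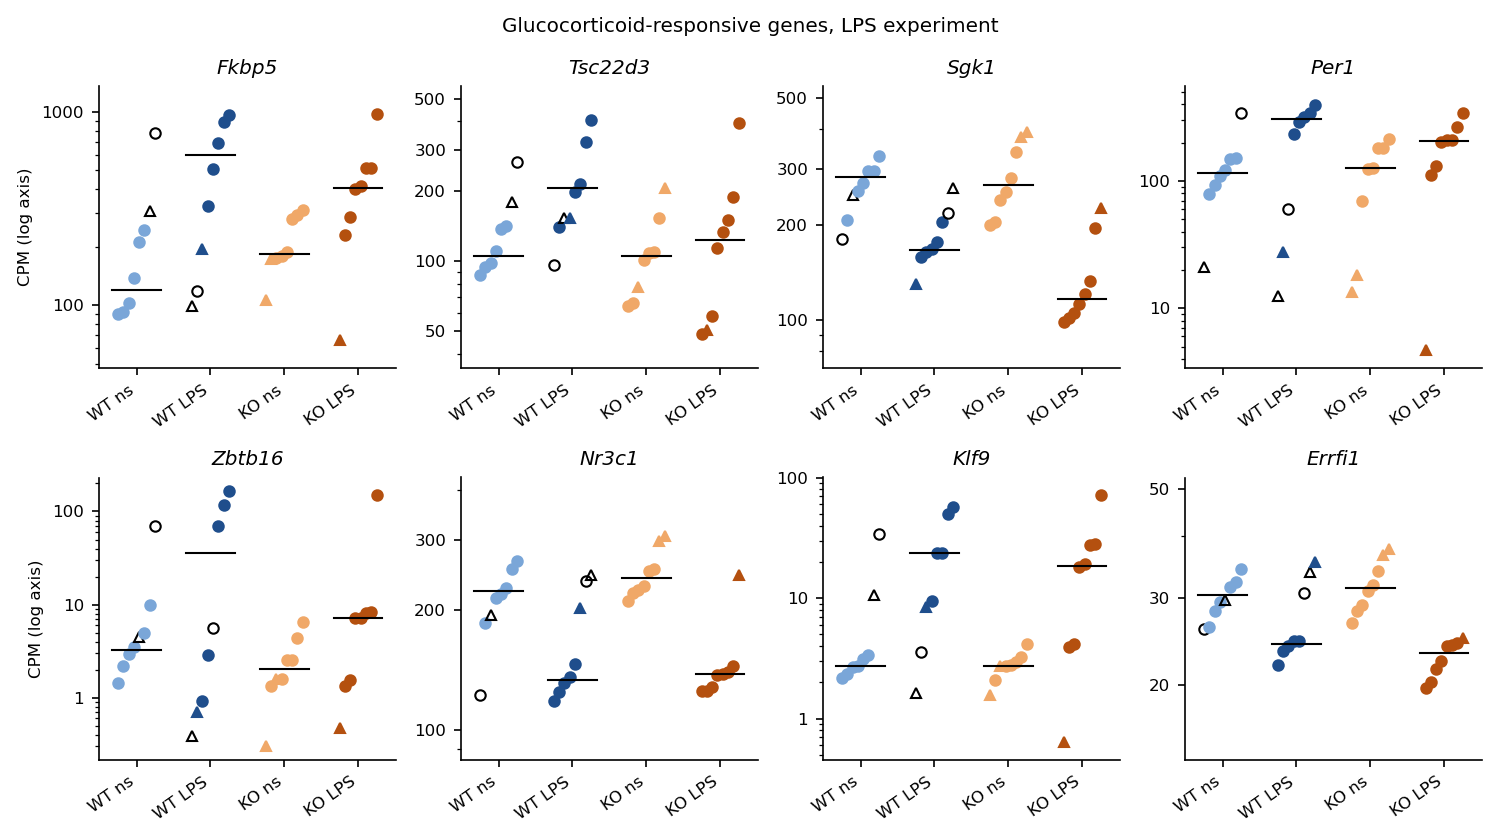
Level of each gene in every sample of the LPS experiment, in CPM on a log axis, by genotype and treatment. Bars are medians of the tested samples, and open black points are the WT libraries of library number 2 kept apart. Triangles are the poorly correlated libraries. *Klf9* separates the WT groups completely (2.18 to 3.37 CPM in ns, 8.51 to 57.5 with LPS), while *Zbtb16* is high in only 4 of the 28 tested samples.

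The receptor gene *Nr3c1* fell with LPS in both genotypes. Its KO values ranged from 211.2 to 307.4 CPM in ns (median 240.8, n = 8) and from 125.2 to 244.7 with LPS (median 138.1, n = 8). KO LPS 5 was the single LPS sample that reached into the ns range. On the log2 scale the change was -0.71 ± 0.15 (SE), adjusted p = 0.000808 by edgeR. In WT it ranged from 185.8 to 265.1 CPM in ns (median 223.6, n = 6) and from 118.3 to 202.4 with LPS (median 133.6, n = 6), and only WT LPS 7 reached into the ns range. The WT log2 fold change was -0.63 ± 0.18, adjusted p = 0.00811 by edgeR. The mean level ordered the groups as KO ns (249.8 ± 36.0, SD), WT ns (227.7 ± 28.6), KO LPS (148.2 ± 39.7) and WT LPS (143.3 ± 30.5), and the genotypes within a treatment did not differ beyond their spread.

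*Fkbp5* rose with LPS in both genotypes. In WT it ranged from 90.3 to 244.4 CPM in ns (median 120.3) and from 196.8 to 966.3 with LPS (median 599.7), and only WT LPS 7 overlapped the ns samples. The log2 fold change was 2.05 ± 0.44, a 4.14-fold rise, adjusted p = 0.000785 by edgeR. KO samples ranged from 107.1 to 311.9 CPM in ns (median 184.8) and from 66.4 to 973.2 with LPS (median 404.9). KO LPS 3, 5 and 6 lay within or below the ns range and the other 5 above it. The log2 fold change in KO was 1.02 ± 0.37, adjusted p = 0.0385 by edgeR. This KO call depended on the samples used: it ended without WT ns 2, 3, 6, 7 or 8, WT LPS 2, 3, 4, 5 or 8+9, KO ns 1, 3, 4, 5 or 6, or KO LPS 1, 2, 4, 7 or 8. Without KO LPS 7 the log2 fold change was 0.66 (adjusted p = 0.198), and without each of the other 19 it was 0.89 to 1.01 (adjusted p from 0.0506 to 0.0864). From lowest to highest mean the groups were WT ns (146.8 ± 66.4 CPM, SD), KO ns (214 ± 72.3), KO LPS (424.7 ± 267.7) and WT LPS (596.9 ± 307.8). The difference between the genotypes in the LPS change was -1.03 ± 0.56 on the log2 scale (adjusted p = 0.772 by edgeR), so the 2 changes were not shown to differ.

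*Tsc22d3*, the gene of the anti-inflammatory protein GILZ, rose in WT. It ranged there from 87.1 to 141.9 CPM in ns (median 104.9) and from 140.1 to 404.3 with LPS (median 206.0). The lowest LPS sample, WT LPS 5, lay just under the highest ns sample, and the other 5 lay above all ns samples. Its log2 fold change was 1.14 ± 0.40, adjusted p = 0.032 by edgeR. That call ended without WT ns 2, 4, 6, 7 or 8, or WT LPS 2, 3 or 8+9, where the log2 fold change was 0.92 to 1.15 (adjusted p from 0.0542 to 0.1). It also ended with no filter on low counts (1.11, adjusted p = 0.0624) and among genes of at least 5 CPM (1.06, adjusted p = 0.0508). In KO *Tsc22d3* ranged from 64.6 to 206.6 CPM in ns (median 105.3) and from 48.7 to 393.8 with LPS (median 123.8). The KO groups overlapped widely, and the log2 fold change of 0.36 ± 0.34 was not called (adjusted p = 0.487 by edgeR). The difference between the genotypes in the LPS change was -0.78 ± 0.52 (adjusted p = 0.772 by edgeR), which does not show that they differ. Means ran from 111.0 ± 48.2 CPM (SD) in KO ns and 111.8 ± 23.1 in WT ns to 142.3 ± 113.8 in KO LPS, and were highest in WT LPS at 239.4 ± 104.

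The kinase gene *Sgk1* fell, although it is a textbook glucocorticoid-induced gene. In KO it ranged from 200 to 390.2 CPM in ns (median 266.7) and from 99.1 to 226 with LPS (median 116.8). KO LPS 5 was the only LPS sample inside the ns range. The fold change on the log2 scale was -1.02 ± 0.19, adjusted p = 0.000142 by edgeR. In WT it ranged from 206.9 to 328.4 CPM in ns (median 283.2) and from 130.4 to 203.9 with LPS (median 166.3), with no overlap between the groups. On the log2 scale the change was -0.68 ± 0.22, adjusted p = 0.0179 by edgeR. From highest to lowest mean the groups were KO ns (285.8 ± 75.2 CPM, SD), WT ns (275.5 ± 41.8), WT LPS (167 ± 23.95) and KO LPS (136.9 ± 47.6). The 2 ns groups did not differ beyond their spread, and neither did the 2 LPS groups.

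*Errfi1*, the receptor tyrosine kinase inhibitor, changed less. Its KO values ranged from 26.7 to 37.7 CPM in ns (median 31.4) and from 19.7 to 24.9 with LPS (median 23.2), with no overlap. The log2 fold change was -0.45 ± 0.12, adjusted p = 0.00502 by edgeR. In WT it ranged from 26.2 to 34.3 CPM in ns (median 30.5) and from 21.9 to 35.5 with LPS (median 24.2). WT LPS 7 was higher than every WT ns sample, and the other 5 LPS samples were lower than all of them. The WT log2 fold change of -0.21 ± 0.14 was not called (adjusted p = 0.27 by edgeR). Means were 31.9 ± 3.96 CPM (SD) in KO ns, 30.3 ± 2.95 in WT ns, 25.6 ± 4.91 in WT LPS and 22.6 ± 1.98 in KO LPS.

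The clock gene *Per1* was not called in either genotype, with wide spread. In WT it ranged from 79.1 to 151.6 CPM in ns (median 115.5) and from 27.6 to 397.4 with LPS (median 303.9). WT LPS 7 was the low one, and the other 5 LPS samples, at 233.7 CPM or more, lay above all ns samples. Its log2 fold change was 1.20 ± 0.62 (adjusted p = 0.143 by edgeR). KO samples ranged from 13.3 to 212.9 CPM in ns (median 125.8) and from 4.74 to 338.4 with LPS (median 205.1), and the log2 fold change was 0.76 ± 0.53 (adjusted p = 0.321 by edgeR). *Per1* was low in each of the libraries that correlated poorly with the rest: it lay between 4.74 and 27.6 CPM in those 6, which include WT ns 5 and WT LPS 6, and between 60.1 and 397.4 in the other 26. Means were 115.8 ± 75.8 CPM (SD) in KO ns, 117.1 ± 29.4 in WT ns, 183.6 ± 101.7 in KO LPS, with WT LPS highest at 268.4 ± 130.1.

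The transcription factor gene *Klf9* rose with LPS in both genotypes. In WT it went from 2.18 to 3.37 CPM in ns (median 2.72) to 8.51 to 57.5 with LPS (median 23.6), with no overlap. The fold change on the log2 scale was 3.43 ± 0.67, a 10.8-fold rise, adjusted p = 0.000308 by edgeR. In KO it ranged from 1.58 to 4.20 CPM in ns (median 2.76) and from 0.640 to 71.8 with LPS (median 18.7). KO LPS 3, 5 and 6 were no higher than the highest ns sample, and the other 5 reached 18.2 CPM or more. On the log2 scale the change was 2.97 ± 0.57, a 7.81-fold rise, adjusted p = 0.000239 by edgeR. The ns means were 2.74 ± 0.446 CPM (SD) in WT and 2.79 ± 0.772 in KO, and the LPS means 28.8 ± 20.5 in WT and 21.7 ± 22.9 in KO.

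*Zbtb16*, which encodes the zinc finger protein PLZF, was called in both genotypes, with a few samples far above the rest. In WT it ranged from 1.45 to 9.88 CPM in ns (median 3.25). With LPS 3 WT samples were at 69.6, 117.1 and 165.5 CPM and the other 3 at 0.704, 0.931 and 2.87. The log2 fold change was 4.05 ± 1.23, adjusted p = 0.0139 by edgeR. Its KO values ranged from 0.304 to 6.54 CPM in ns (median 2.05), and with LPS KO LPS 7 was at 150.2 while the other 7 lay between 0.469 and 8.37. The KO log2 fold change was 2.79 ± 1.05, adjusted p = 0.0473 by edgeR. Without KO LPS 7 it was 0.91 (adjusted p = 0.493). The KO call also ended without WT ns 2, 3, 4, 6, 7 or 8, WT LPS 2 or 3, KO ns 2, 3, 4, 5, 6, 7 or 8, or KO LPS 1, 2, 4 or 8, where the log2 fold change was 2.54 to 3.03 (adjusted p from 0.0513 to 0.0852). Means were 2.61 ± 1.99 CPM (SD) in KO ns, 4.16 ± 3.05 in WT ns, 23.1 ± 51.5 in KO LPS and 59.5 ± 70.4 in WT LPS. In both LPS groups the SD exceeded the mean.

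The choice of libraries changed the WT result more than the KO result. With all libraries as labelled and the pair summed, edgeR called no gene of 15857 for LPS in WT (0%) and so none of the 8, with 3605 genes and 2 of the 8 at an unadjusted p under 0.05. With the pair kept apart 36 of 15914 genes were called, again none of the 8, with 3601 genes and 4 of the 8 at an unadjusted p under 0.05. With the pair summed the WT log2 fold changes were 0.96 for *Fkbp5* (adjusted p = 0.237), 1.57 for *Klf9* (0.192), 1.84 for *Zbtb16* (0.327), 0.59 for *Tsc22d3* (0.333), -0.49 for *Sgk1* (0.141) and -0.33 for *Nr3c1* (0.245), all with the sign they had without the number 2 libraries. The library labelled WT ns 1 held *Fkbp5* at 776.6 CPM, *Klf9* at 34.2, *Zbtb16* at 70.2 and *Nr3c1* at 122.9, each within the WT LPS range, and that labelled WT LPS 1 held them at 118.7, 3.60, 5.61 and 236.6, each within or close to the WT ns range. The set 2 pair was less clear. That labelled WT ns 5 held *Fkbp5* at 309.6 CPM and *Klf9* at 10.6, within the WT LPS range and above all tested WT ns samples, but *Zbtb16* at 4.48 and *Nr3c1* at 194.7, inside both ranges, and *Per1* at 20.95, below both. That labelled WT LPS 6 held *Fkbp5* at 99.95 CPM and *Nr3c1* at 245.5, within the WT ns range, but *Tsc22d3* at 153.6, inside the WT LPS range and above all tested WT ns samples, and *Per1* at 12.4, below both ranges. In KO, as labelled, 22.3% of genes were called and 4 of the 8, the calls of *Fkbp5* (0.99, adjusted p = 0.151) and *Zbtb16* (3.08, adjusted p = 0.0693) being lost by edgeR.

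Without the libraries that correlated poorly, more genes passed the test, and all 8 in WT. Over 16071 genes, 54.7% were called in KO and 54.1% in WT, so a call there is common among all genes. All 8 were called in WT, *Per1* among them at a log2 fold change of 1.45 (adjusted p = 0.00017) and *Errfi1* at -0.35 (adjusted p = 0.000713, edgeR). In KO 5 were called and *Zbtb16* was not (2.44, adjusted p = 0.0658). In set 1 by itself 5 of the 8 were called in KO and all 8 in WT, beside 7219 and 6792 of all 15939 genes tested. In set 2 by itself, which holds those poorly correlated libraries, edgeR called none of the 8 in either genotype, with 2 in each at an unadjusted p under 0.05, beside 721 and 547 of 16533 genes called. The log2 fold changes in set 2 kept their signs for all 8 genes, for example 1.01 for *Fkbp5* and 3.32 for *Klf9* in KO.

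**Figure D2:**
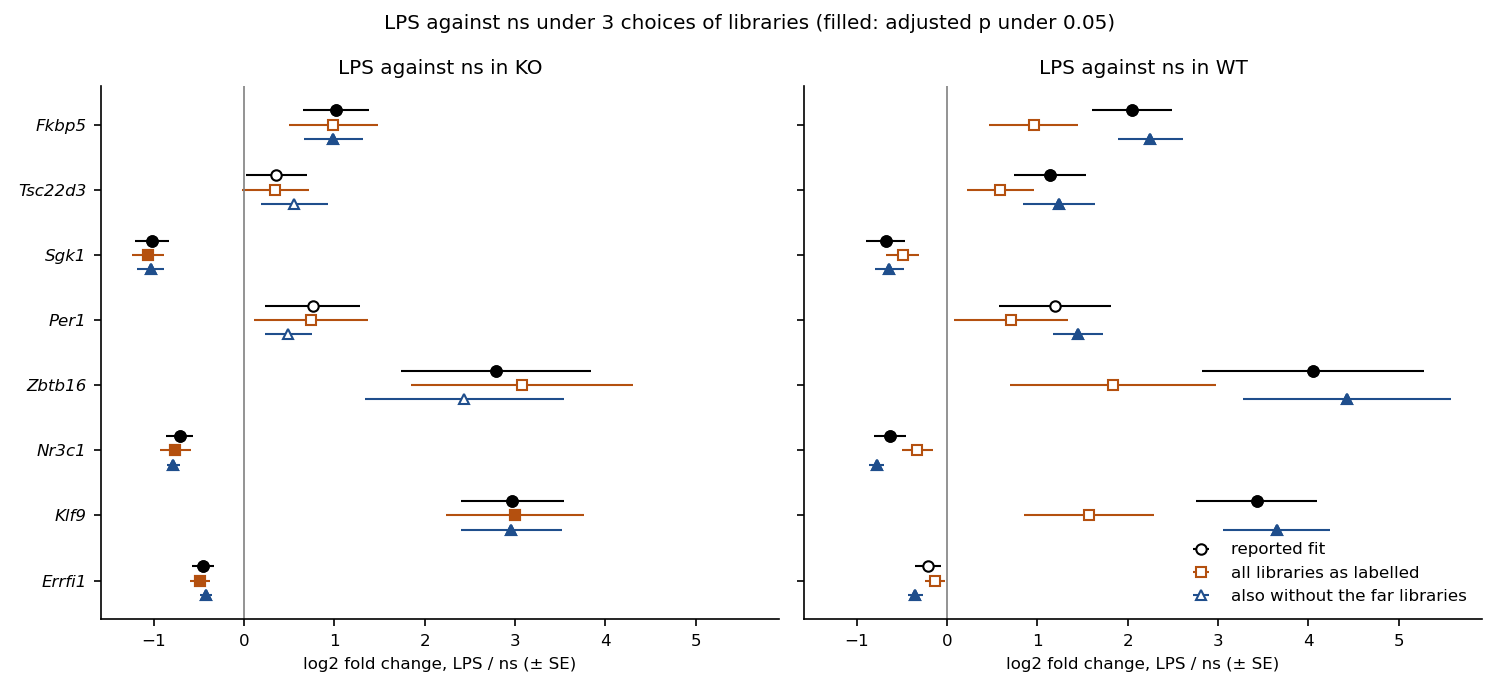
Log2 fold change with its SE for LPS against ns in KO (left) and WT (right), under 3 choices of libraries: circles, the 28 samples of the reported fit; squares, all libraries as labelled; triangles, also without the 4 further libraries that correlated poorly with the rest; filled symbols have an adjusted p under 0.05 by edgeR. No WT square is filled, all 8 WT triangles are, and no gene changes direction.

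Across the KO LPS samples *Fkbp5* varied together with *Klf9*, *Per1*, *Zbtb16* and *Tsc22d3*, of which *Per1* and *Tsc22d3* were not called with LPS in KO. Against *Fkbp5* on the log2 scale (n = 8, 14 relations over the 2 KO groups), Pearson's r was 0.97 for *Klf9* (adjusted p = 0.00122, exact permutation, two-sided), 0.95 for *Per1* (0.000694), 0.90 for *Zbtb16* (0.0237) and 0.85 for *Tsc22d3* (0.0237). Spearman's rho was 0.95, 0.98, 0.93 and 0.95 in the same order, with adjusted p by exact permutation of 0.00532, 0.00532, 0.00781 and 0.00532. Without KO LPS 5 and KO LPS 7, the 2 samples farthest from the median of *Fkbp5*, r was 0.96, 0.96, 0.93 and 0.98. *Errfi1* went the other way, with r = -0.75 (adjusted p = 0.0515, exact permutation) and rho = -0.88 (0.0203), and for *Nr3c1* r was -0.81 (adjusted p = 0.125, exact permutation). *Sgk1* showed little relation (r = -0.34). In the KO ns samples no relation passed the threshold, the lowest adjusted p being 0.125 for Pearson's r and 0.0652 for Spearman's rho, both by exact permutation. Each library set held 4 samples of a group, too few to repeat this within a set.

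**Figure D3:**
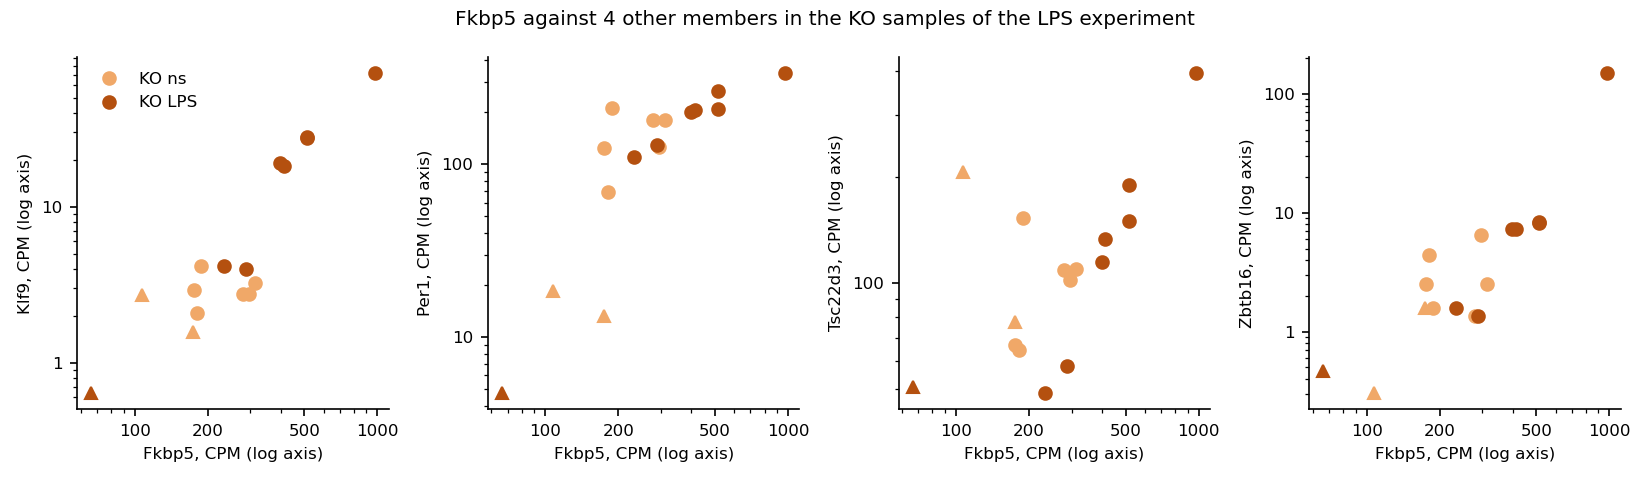
Levels of *Klf9*, *Per1*, *Tsc22d3* and *Zbtb16* against *Fkbp5*, all in CPM on log axes, 1 point for each of the 8 KO ns and 8 KO LPS samples. Triangles are the poorly correlated libraries. In KO LPS samples (dark) all 4 genes climb with *Fkbp5*, from KO LPS 5 with *Fkbp5* at 66.4 CPM to KO LPS 7 at 973.2.

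The samples with high *Zbtb16* were those with the highest *Fkbp5*. WT LPS 2, WT LPS 3, WT LPS 8+9 and KO LPS 7 held *Fkbp5* at 690.9 to 973.2 CPM, above all other 24 tested samples, which reached 514. *Tsc22d3* was at 214.3 to 404.3 CPM in these 4 and at most 206.6 in the others. *Klf9* (23.7 to 71.8 CPM) and *Per1* (287.6 to 397.4) overlapped the others, which reached 28.1 and 320.2. *Nr3c1* (131.2 to 146.7) and *Sgk1* (158.8 to 195.6) were within the range of the others. These samples were picked by their *Zbtb16* level, so the values are a description.

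Loss of P2RY12 did not give a called change of any of the 8 genes at either treatment. At ns 15 genes were called between the genotypes (0.0932%), at LPS 12 (0.0746%), and the genotype by LPS interaction called 0 (0%), with 0 of the 8 in each by edgeR and by DESeq2, while 3 genes passed the interaction test by DESeq2. At an unadjusted p under 0.05 edgeR gave 1480, 1019 and 708 genes, and 0, 1 and 0 of the 8. The 1 was *Tsc22d3*, lower in KO than in WT at LPS by a log2 fold change of -0.79 ± 0.37 (adjusted p = 0.757, edgeR). For KO against WT the median log2 fold change of the 8 genes was 0.04 at ns and -0.46 at LPS, and -0.45 for the interaction. Over all genes tested the medians were -0.04, -0.03 and 0.06. The 8 genes were not tested as a set. Intervals at LPS were built from the SE and the 95% quantile of the normal distribution. They reached from -1.26 to 0.28 for *Fkbp5* and from -1.54 to 0.68 for *Klf9*. Both intervals include a log2 fold change of -1, whereas for *Nr3c1* the interval was -0.26 to 0.39. Such intervals are approximate, and narrower than ones built from the F test would be.

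Other genes of the pathway gave the setting of these changes. Over all genes tested, 14.4% were called higher and 14.1% lower with LPS in KO, and 15.5% and 15.2% in WT. Of 23 tested genes known to be induced by glucocorticoids in some tissue, 11 were higher and 2 lower with LPS in KO, and likewise 11 and 2 in WT, with median log2 fold changes of 0.86 and 1.33. *Il1r2*, a decoy receptor for interleukin-1, rose by 5.36 ± 0.61 in KO and 5.18 ± 0.70 in WT. *Nfkbia*, an inhibitor of NF-κB that is also induced by NF-κB itself, rose by 1.59 ± 0.20 and 2.28 ± 0.23. *Cdkn1a*, a cell cycle inhibitor, rose by 2.43 ± 0.38 and 1.90 ± 0.42. *Txnip*, a thioredoxin inhibitor, fell by 1.23 ± 0.15 in KO, with -0.94 ± 0.17 in WT. Several of these genes respond to inflammatory signals as well, so the list does not isolate the receptor.

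**Figure D4:**
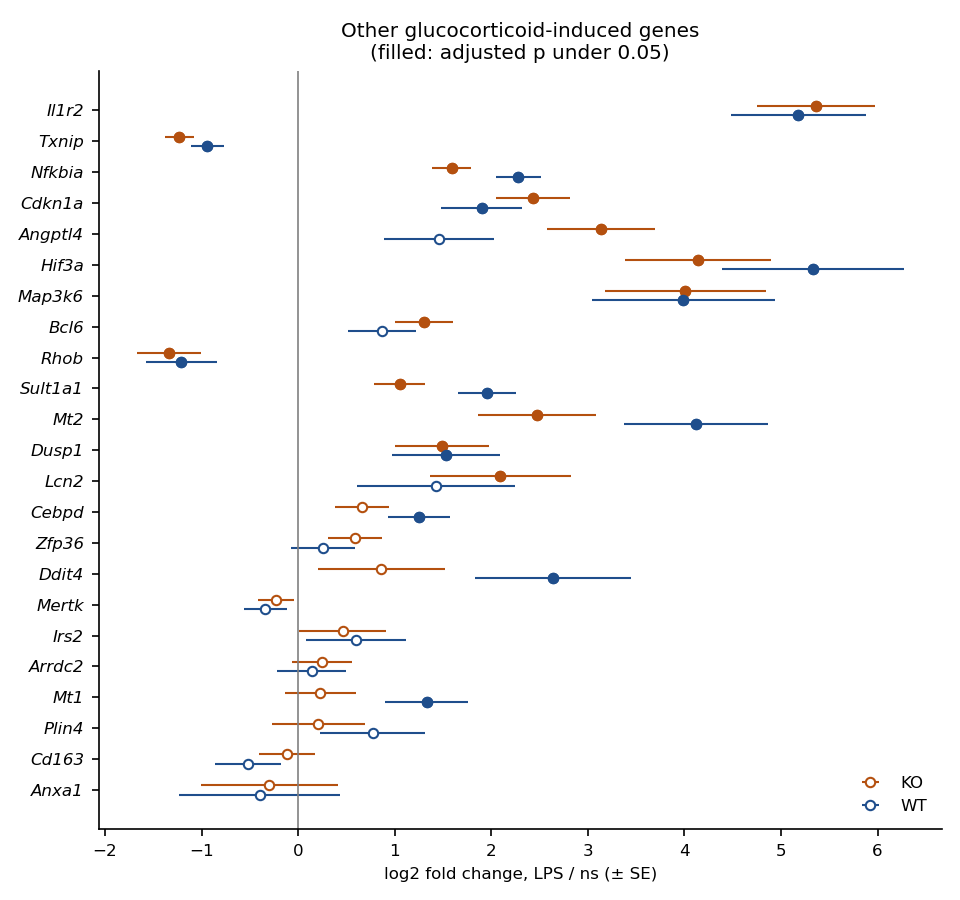
Log2 fold change with its SE for LPS against ns of the tested genes from the list of other glucocorticoid-induced genes, in KO and in WT; filled points have an adjusted p under 0.05 by edgeR. In each genotype 11 genes are called higher and 2 lower.

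Among the receptor's partners and steroid-metabolising enzymes 3 of 16 were higher and 2 lower in KO, and 2 and 2 in WT, near the shares over all genes. The mineralocorticoid receptor *Nr3c2*, which also binds corticosterone, fell by 1.69 ± 0.20 in KO, with -1.69 ± 0.24 in WT. The chaperone genes *Hsp90ab1* and *Stip1* rose in KO by 1.20 ± 0.23 and 0.64 ± 0.20, and the corepressor gene *Nrip1* fell by 0.62 ± 0.13. Inflammatory genes that glucocorticoids are known to repress were mostly higher with LPS, 8 of 12 in KO and 10 in WT, with 1 lower in KO (*Il6*, -2.26 ± 0.52, named after its value was seen) and 0 lower in WT by edgeR. *Tnf* rose by 4.24 ± 0.38 in KO, *Ccl5* by 3.11 ± 0.32, *Nos2* by 7.88 ± 0.88 and *Il12b* by 4.81 ± 0.76.

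Beside *Per1*, 6 of 15 tested clock genes fell and 1 rose in each genotype. The shares over all genes were 14.1% lower and 14.4% higher in KO, and 15.2% and 15.5% in WT. In KO *Hlf*, *Dbp*, *Nr1d2* and *Per3*, clock output and feedback genes, fell, with log2 fold changes of -4.36 ± 0.31, -3.45 ± 0.33, -3.15 ± 0.32 and -2.02 ± 0.23. The time of day of collection is not given in the sources used here. Of 18 immediate early genes, which also respond to tissue dissociation, 4 were higher and 5 lower in KO, and 3 and 5 in WT. Among the leading ones *Ier3* rose by 2.98 ± 0.32, *Ier2* by 1.67 ± 0.35 and *Klf4* by 1.96 ± 0.49 in KO, and *Egr2* was lower at -2.0 ± 0.41.

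Markers of cell types moved with LPS as well, and their part in the results was not tested. Their counts stand beside 14.4% of all genes called higher and 14.1% lower in KO, and 15.5% and 15.2% in WT. Of 10 microglial markers 6 were lower in KO and 7 in WT, and their summed level ranged from 33130 to 53880 CPM in KO ns and from 21250 to 26090 in KO LPS, and from 25140 to 42060 in WT ns and from 16940 to 25030 in WT LPS. *P2ry12* itself was at -2.76 ± 0.22 on the log2 scale in KO, where residual reads remain, and *Siglech* at -2.27 ± 0.20. The counts of 6 and 7 include *P2ry12*, the deleted gene. Its level also showed the WT libraries of library number 2 to go against their labels, so its call in WT partly follows from keeping them apart. The 10 neutrophil markers summed to 1080 to 10370 CPM in KO ns, 2022 to 4896 in KO LPS, 1849 to 18910 in WT ns and 2293 to 13720 in WT LPS, with *Cxcr2* the 1 higher in KO (1.29 ± 0.49), *Camp* at -2.31 ± 1.01 uncalled there, and 1 lower in WT. Of 7 monocyte markers *Ccr2* was lower in both genotypes (-1.72 ± 0.39 in KO) and *Fn1* was at 1.57 ± 0.64, uncalled. Of 7 border-associated macrophage markers 1 was higher and 2 lower in each genotype, *Mrc1* and *Pf4* being at -1.5 ± 0.20 and -2.32 ± 0.37 in KO. B cell markers fell, 4 of 6 in KO and 5 in WT, led by *Ighm* and *Ms4a1* (-1.66 ± 0.19 and -2.68 ± 0.56 in KO). Of 4 tested T and NK cell markers 3 were lower in KO, with *Klrb1c* at -2.0 ± 0.46 and *Nkg7* at -1.26 ± 0.47, and none of the 4 was called in WT by edgeR, or reached an unadjusted p under 0.05. Endothelial markers had 1 of 6 lower in KO (*Pecam1*, -1.03 ± 0.21, with *Flt1* at -0.91 ± 0.35 uncalled) and 2 higher and 2 lower in WT. Astrocyte markers had 1 higher (*Gfap*, 1.64 ± 0.40) and 1 lower (*Slc1a3*, -0.73 ± 0.13) of 6 in KO and 1 higher in WT. None of the 5 neuron markers was called by edgeR, with 1 in KO and 0 in WT at an unadjusted p under 0.05 (*Meg3* -1.37 ± 0.62, *Snap25* 0.55 ± 0.34 in KO). No marker was at 0 in every sample of a group.

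In the sex experiment, which carries no treatment label, loss of P2RY12 gave no called change of the 8 genes. In males 3 of 31709 genes were called (0.00946%), in females 52 (0.164%), averaged over sex 137 (0.432%), and the sex by genotype interaction called 0 (0%), with 0 of the 8 in each by edgeR and by DESeq2. At an unadjusted p under 0.05 edgeR gave 2171, 1655, 2860 and 879 genes and 1, 2, 0 and 1 of the 8. In the same order the median log2 fold change of the 8 genes was 0.00, 0.36, 0.10 and 0.44. Over all genes tested it was -0.01, -0.01, -0.01 and 0.03. The receptor gene *Nr3c1* was the steadiest, at 231.7 to 304.1 CPM over all 18 animals, with log2 fold changes for KO of 0.02 ± 0.07 in males and -0.06 ± 0.07 in females. *Fkbp5* ranged from 73.6 to 224.4 CPM, *Sgk1* from 523.8 to 1067 and *Errfi1* from 29.9 to 47.7, with log2 fold changes for KO between 0.03 and 0.40 in either sex. *Zbtb16* (6.01 to 27.7 CPM) and *Klf9* (3.68 to 11.6) were highest in female KO 5.

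*Tsc22d3* showed opposite differences in the sexes that did not pass the adjusted test. Male WT animals had 79.5, 83.8, 91.3 and 114.4 CPM and male KO animals 46.3, 56.3, 68.5, 79.9 and 80.4. The male groups overlap at their edges, and the log2 fold change for KO was -0.48 ± 0.18 (adjusted p = 0.719, edgeR). Without male WT 5, the animal at 114.4 CPM, it was -0.36 ± 0.19, with an unadjusted p of 0.0763 by edgeR. Female WT animals had 93.2, 94.0, 99.5 and 115.5 CPM and female KO animals 109.1, 116.4, 128.9, 139.8 and 195.4. In females the log2 fold change was 0.46 ± 0.18 (adjusted p = 0.734, edgeR), with female KO 1 the only animal under the highest WT. The difference between the sexes in the genotype effect was 0.93 ± 0.25 (adjusted p = 0.999, edgeR).

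Between the sexes, WT animals gave 23 called genes (0.0725%) and none of the 8 by edgeR or DESeq2, with 2379 genes and none of the 8 at an unadjusted p under 0.05. KO animals, a comparison added after the data were seen, gave 77 (0.243%), and *Tsc22d3* was among them. All 5 female KO animals lay above all 5 male KO animals. Its log2 fold change was 1.06 ± 0.17, a 2.08-fold difference, adjusted p = 0.00919 by edgeR, and 0.12 ± 0.19 in WT (adjusted p = 0.821). Leaving out each animal in turn gave 0.90 to 1.15 with an adjusted p of at most 0.0382, and with only the KO groups in the fit it was 1.05 and not called (adjusted p = 0.072). That the sex difference is larger in KO is the same contrast as the interaction, which was not called.

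*Per1* was also higher in every female than in every male KO animal, without passing the test. Female KO animals had 87.8, 103.4, 110.1, 118.4 and 150.9 CPM and male KO animals 42.7, 50.6, 53.9, 56.3 and 79.9, with no overlap. The fold change on the log2 scale was 1.01 ± 0.24 (adjusted p = 0.129, edgeR). It passed with DESeq2 (adjusted p = 0.00349), among genes of at least 5 CPM (0.0473), and without male WT 5 (1.01, adjusted p = 0.0474). WT females had 54.1, 55.2, 76.4 and 96.3 CPM and WT males 38.7, 46.3, 55.2 and 88.1, and for KO in females the log2 fold change was 0.69 ± 0.25 (adjusted p = 0.657, edgeR). *Klf9* (0.69 ± 0.21), *Zbtb16* (0.97 ± 0.33) and *Fkbp5* (0.60 ± 0.29) were also on the female side in KO, with adjusted p of 0.239, 0.377 and 0.663 by edgeR.

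**Figure D5:**
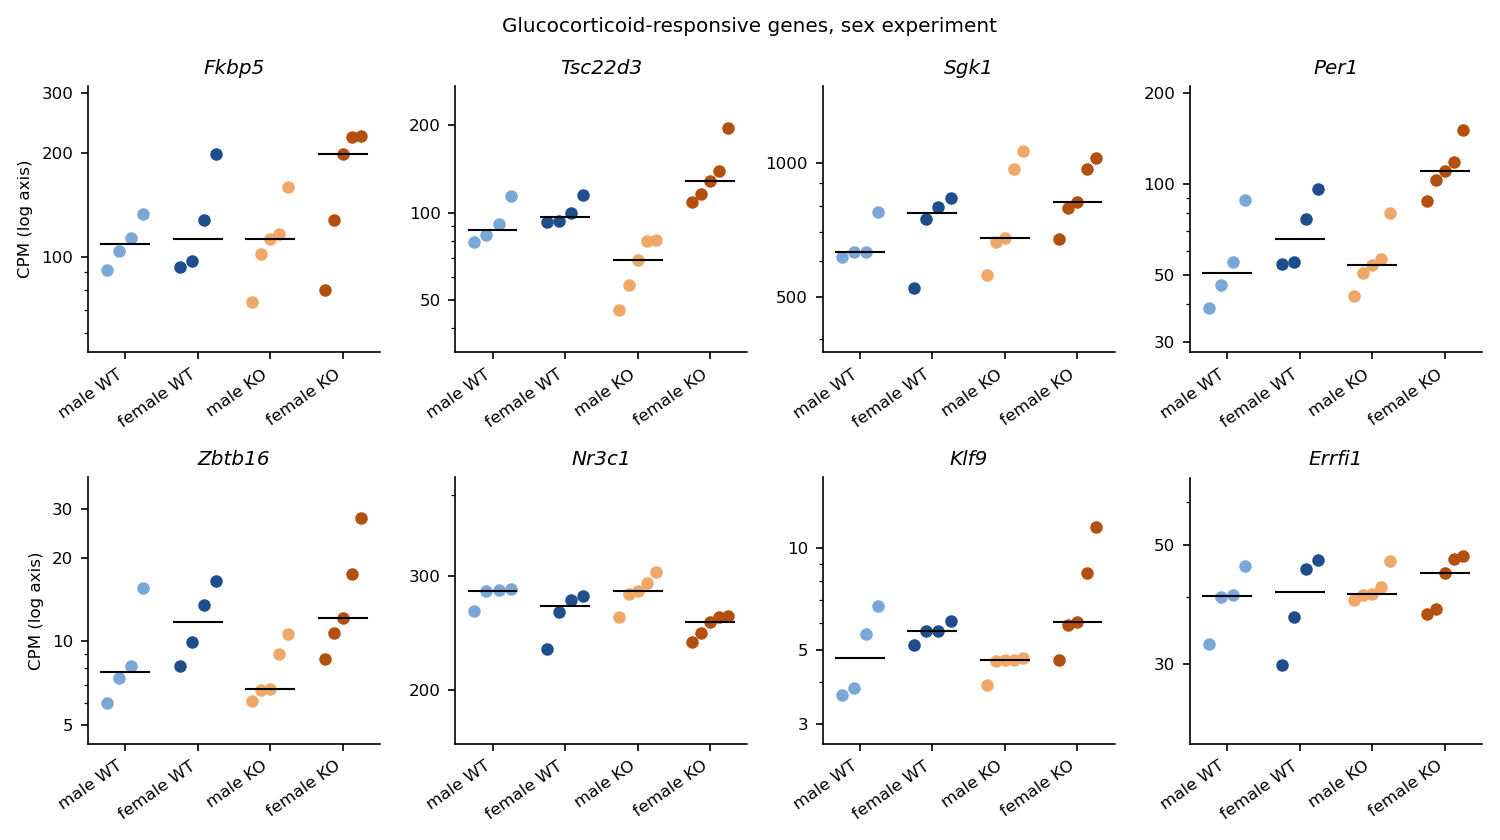
Level of each gene in the 18 animals of the sex experiment, in CPM on a log axis, by sex and genotype, with group medians as bars. For *Tsc22d3* and *Per1* the 5 female KO animals lie above the 5 male KO animals, and *Nr3c1* stays between 231.7 and 304.1 CPM.

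Other gene groups stood apart with sex in KO animals too, and their part was not tested. All 18 immediate early genes had a positive log2 fold change for female against male KO, with a median of 0.72. The median was 0.05 for all genes and 0.65 for the 8 genes. By edgeR 2 of the 18 were called and 16 had an unadjusted p under 0.05, as did 5 of the 8 genes and 2494 of all 31709. Over all genes 0.243% were called in that comparison. All 7 T and NK cell markers (median 1.07) and all 7 border-associated macrophage markers (median 0.65) were on the same side, with 0 called by edgeR and 5 and 1 at an unadjusted p under 0.05, and their sums were highest in female KO 5, at 271.7 and 982.6 CPM. Without that animal *Tsc22d3* was at 0.90 (adjusted p = 0.0119). The other glucocorticoid-induced genes had 0 of 24 called there by edgeR (median 0.35, with 9 at an unadjusted p under 0.05). Averaged over sex 2 of 24 were higher in KO, beside 0.432% of all genes called. In the WT groups male WT 5 and female WT 2 held neutrophil marker sums of 49750 and 29980 CPM, with 1472 to 8547 in the other animals, and KO comparisons rest on 4 WT animals per sex.

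The genes whose levels followed *Fkbp5* and *Tsc22d3* most closely were sought among 13737 genes tested in both tables, by Pearson's r of deviations. Over the 18 animals these were deviations from the group mean. Over the 28 samples they were deviations from the mean of the group within its library set. For *Fkbp5* the closest were *Il15ra* (r = 0.80 and 0.89), *Ston1* (0.80 and 0.89), *Mycl* (0.79 and 0.81), *Mlxip* (0.79 and 0.85) and *Rassf2* (0.78 and 0.87). For *Tsc22d3* they were *Inpp5k* (0.74 and 0.73), *Dusp1* (0.73 and 0.85), *Tbrg1* (0.73 and 0.72), *Bcl10* (0.70 and 0.88) and *Mob2* (0.69 and 0.86). Between the members themselves, *Fkbp5* deviated with *Per1*, *Klf9*, *Zbtb16* and *Tsc22d3* in the LPS experiment (r = 0.83, 0.83, 0.80 and 0.60) and far less in the sex experiment (0.35, 0.04, 0.09 and 0.25). Values of a sample share its library and depth, so these are descriptions.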

How the data were processed

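The authors deposited raw read counts per gene, 1 table per experiment, as whole numbers with no normalization, per the file headers and values. The submitters' processing notes name STAR 2.6.1, featureCounts (Subread), DESeq2 and the build GRCm39, and the strand setting is not given in the sources used here. Counted spans of the sex experiment include introns, so overlapping genes can share reads there. For the LPS experiment no spans are listed. The labels list 57 libraries. The 6 repeat libraries of the sex experiment have no column and were not analysed here, and 0 columns lacked a sample.

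The counts were filtered with filterByExpr, scaled by TMM and tested with edgeR 4.0.16 (quasi-likelihood F test, robust, R 4.3.3), 1 model per experiment over 31709 and 16088 genes, with library set as a covariate for LPS. P-values were adjusted by Benjamini-Hochberg within each contrast, with a threshold of 0.05, and the procedure was tested on simulated counts. Each SE of a log2 fold change was worked back from the fold change and its F statistic. Libraries with a median Spearman correlation to the others under 0.92 were also left out, a choice made after the data were seen. WT LPS 8 and 9 were summed because the chi-square of their counts per degree of freedom was 1.86, against 8.32 or more for the other pairs. Correlations used log2 of CPM with 0.1 added. Alternatives were DESeq2 1.42.0, RLE scaling, no filter, a mean of at least 5 CPM, a replicate block, only the groups compared, other choices of libraries and sets, and each sample left out.

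All 8 genes are named. Of each other list the 4 genes (2 for cell markers) with the smallest p for LPS in KO are named, and 5 genes each most like *Fkbp5* and *Tsc22d3*. The result of 1 marker list is not reported here. The genes and lists were chosen with earlier results of these data known. Promoter sequences are RefSeq's, build GRCm38.p6.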

Additional observations from a re-analysis of the deposited data

Results flagged for a closer look

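Of 64 sets of values (8 genes in 8 groups), 9 held a sample that stood far from the rest of its group by Dixon's criterion. It was applied to CPM without taking logs. For normally distributed values chance meets it in about 1 of 20 groups, a rate that need not hold for CPM. Log values were not examined this way, and no explanation was tested. With LPS, KO LPS 7 was the highest sample for *Tsc22d3* (393.8 CPM, next 189.5), *Zbtb16* (150.2, next 8.37) and *Klf9* (71.8, next 28.1). KO LPS 5 was the highest for *Nr3c1* (244.7 CPM, next 144.8), as WT LPS 7 was for *Nr3c1* (202.4, next 146.7) and *Errfi1* (35.5, next 24.5). Both are poorly correlated libraries. In the sex experiment male WT 1 was high for *Sgk1* (777.8 CPM, next 630.6), male WT 5 low for *Nr3c1* (265.4, next 284.3) and male KO 1 low for *Klf9* (3.92, next 4.64).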

How the results depend on the processing

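Of 808 fold changes of the 8 genes under alternatives other than leaving out a sample, none reversed a called direction, 41 lost a call and 7 gained one. Members called for female against male KO numbered 1, with 2 by DESeq2, 2 among genes of at least 5 CPM, and 0 with only the groups compared. For LPS in WT the count of 6 became 0 with all libraries as labelled, whether the pair was summed or kept apart, and 0 in set 2 alone. For LPS in KO the count of 6 became 0 in set 2 alone, which holds the poorly correlated libraries. Set 1 alone, with as many tested samples in each group, gave 5 in KO and 8 in WT, beside 7219 and 6792 of 15939 genes called. Why the sets differed was not tested. Leaving out 1 sample gave 1 to 2 members for female against male KO, 4 to 6 for LPS in KO, 5 to 6 for LPS in WT, and 0 to 0 for the other 8 comparisons. For LPS in KO the count was 4 with no filter, with at least 5 CPM and with only the groups compared. The genes called in those fits numbered 4242, 3063 and 3534. Each fit tested a different set of genes, so these counts are not shares to set the 4 against. For LPS in WT *Tsc22d3* was lost with no filter and with at least 5 CPM, where *Errfi1* was called (-0.30, adjusted p = 0.0442 by edgeR).

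The replicate numbers are not said to pair the samples, and did not do so in every pair. In the sex experiment same-numbered samples correlated above 0.1 in 5 of 8 pairs (mean r = 0.126). Differently numbered ones did so in 7 of 32 pairs (mean r = -0.030), so some pairing there is possible. In the LPS experiment it was 12 of 35 pairs (mean r = 0.080) and 35 of 111 (mean r = -0.013). All 6 libraries that correlated poorly were in set 2 and carried library number 2 or 3, across both genotypes and treatments. WT ns 5, WT LPS 6, KO ns 5 and KO LPS 5 carried number 2, and WT LPS 7 and KO ns 6 number 3. WT ns 6 and KO LPS 6, also number 3 of set 2, were not among them. What the 6 have in common was not tested. With the replicate block 5 members were called for LPS in KO, *Zbtb16* being lost (1.73, adjusted p = 0.141 by edgeR). For LPS in WT 6 were called, and 0 for the genotype comparisons. Of 16088 genes, 5574 and 5758 were called for LPS in KO and WT (4587 and 4934 without the block). The block lies within sex, so it gives no value for female against male, and a fit of only the groups compared gives none of its own for the interactions or the average over sex. A sample correlated best with its own number in 8 of 16 and 9 of 27 cases, and the rate without pairing was not worked out. RLE scaling shifted the median of all genes by 0.04 or less in size. In the tested ns samples of the LPS experiment *Klf9* lay at 1.58 to 4.20 CPM and *Zbtb16* at 0.304 to 9.88 CPM, and depth sets the precision of such low levels.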
